A study of Mus musculus with 10 samples.

Results

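The corticotropin-releasing factor (CRF) system and the genes that respond to glucocorticoid were examined in the nucleus accumbens (NAc), a part of the ventral striatum. The set was chosen by gene symbol: the rows whose Ensembl identifier maps to Crh, Ucn, Crhr1, Crhr2, Crhbp, Nr3c1, Nr3c2, Fkbp5, Sgk1 or Tsc22d3. All 10 were found among the 29883 genes of the table. RNA came from 5 male C57BL/6J (B6) and 5 male DBA/2J (D2) mice, inbred strains bought from the Jackson Laboratory, group-housed, never given ethanol and killed at 9 weeks of age. Each mouse gave 1 poly-A library, strain was the only factor, and no mouse carried a transgene or received a treatment. Both strains were compared to ask whether they differ at baseline, since they differ in behaviors related to ethanol.

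CRF, the peptide encoded by Crh, is released by neurons and acts on the receptors Crhr1 and Crhr2, which also bind urocortin, the product of Ucn, while the secreted protein Crhbp binds both peptides and withholds them from the receptors. In the hypothalamus CRF starts the endocrine stress response that ends in the release of corticosterone by the adrenal gland, and in the NAc it is known to act on dopamine release and motivated behavior. Corticosterone enters cells and binds the mineralocorticoid receptor (Nr3c2) with high and the glucocorticoid receptor (Nr3c1) with lower affinity, and both receptors switch genes on in the nucleus, Fkbp5, Sgk1 and Tsc22d3 among them.

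No gene of the set passed the test of a strain difference. By edgeR's quasi-likelihood test with Benjamini-Hochberg adjustment over all genes, 0 of 10 passed an adjusted p of 0.05, and 0 had an unadjusted p under 0.05. The same test called 18.3% of all genes, 8.5% higher and 9.83% lower in D2. With DESeq2, 0 of 10 were called and 0 had an unadjusted p under 0.05, where 20.8% of all genes were called. The ranges of the B6 and D2 mice overlapped for all 10 genes, whereas 16% of all genes had ranges that did not overlap. Among these the log2 fold change farthest from 0 was that of Crhr2, at 0.21, and the smallest unadjusted p was that of Sgk1. How closely a difference is bounded varied widely over the set: the 95% interval of the D2 to B6 fold ran from 0.951 to 1.07 for Nr3c2 and from 0.29 to 4.35 for Ucn.

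**Figure D1:**
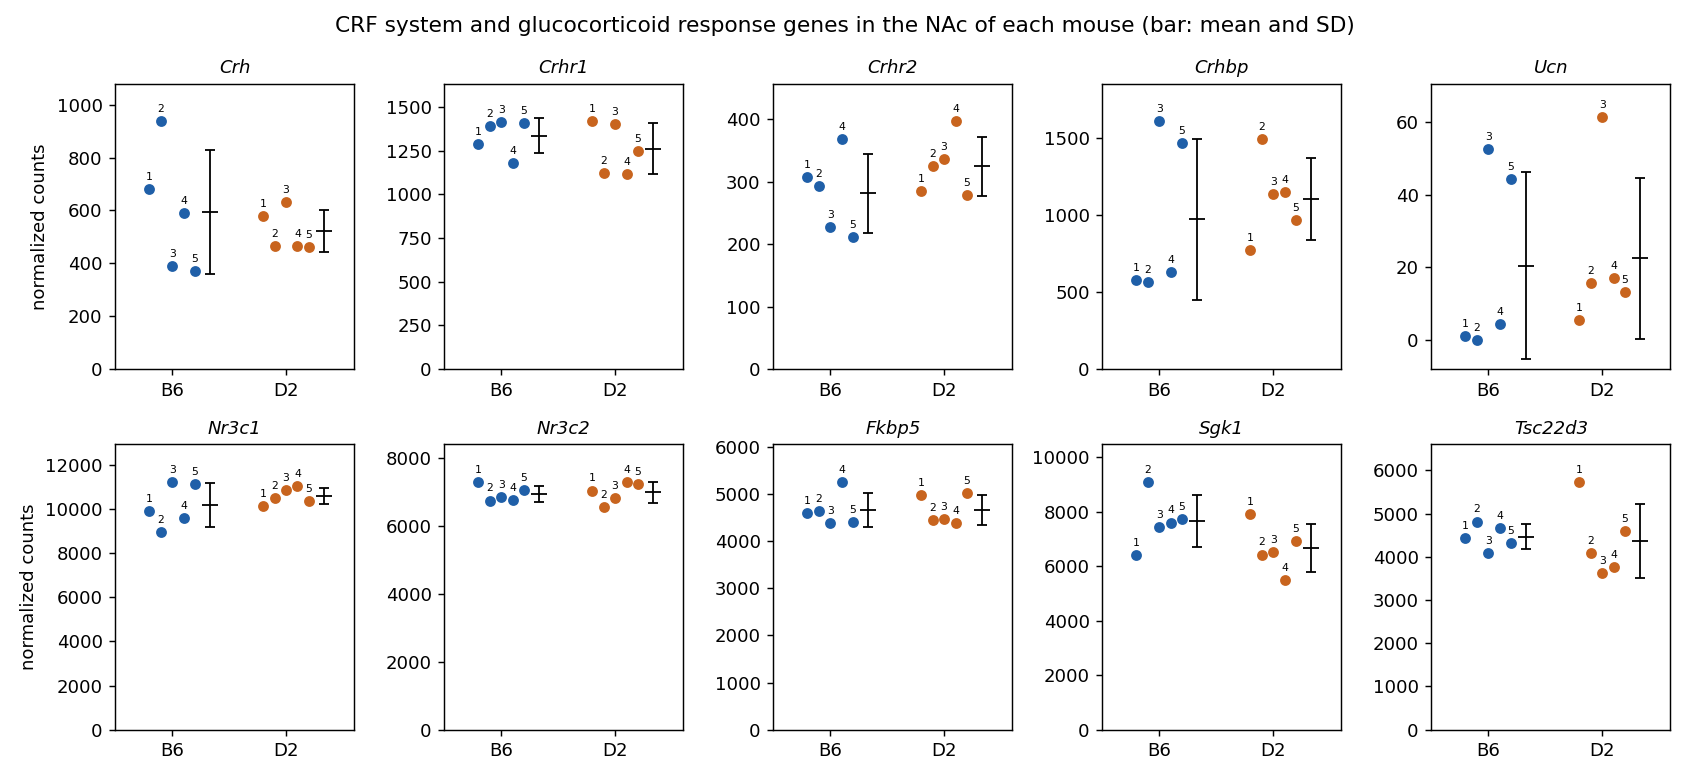
Normalized counts (vertical axes) of the 10 genes in each of 5 B6 (blue) and 5 D2 (orange) mice, numbered by replicate, with the mean and SD beside each group. The strains overlap in every panel, and B6 mice 3 and 5 stand apart from B6 mice 1, 2 and 4 for Crhbp and Ucn.

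Facts of the libraries bear on these values. Between 96977262 and 116776714 reads per library were counted on genes, and counts are given here scaled to a common depth by TMM (normalized counts). All 9 markers of striatal projection neurons were present in every library at 10676 normalized counts or more, and 6 of them were lower in D2, with 0 higher, beside 9.83% and 8.5% of all genes. The summed level of all 9 lay between 508242 and 649144 in B6 and between 421403 and 511996 in D2 (exact permutation test, two-sided, p = 0.024). The p-values of marker sums, here and below, were not adjusted over the several marker lists tested. Markers of cortex neurons (Slc17a7, Neurod6, Neurod2, Tbr1 and Emx1) were all detected in every mouse, and their sum varied 12.6-fold. It was 8702, 7953, 99144, 17083 and 100544 in B6 mice 1 to 5 and 22883, 57402, 62126, 50064 and 32953 in D2 mice 1 to 5. B6 mice 3 and 5 were thus the highest and B6 mice 1, 2 and 4 the lowest of all, and no difference between the strains passed the test (exact permutation test, two-sided, p = 0.96). B6 mice 3 and 5 were also the most alike pair of libraries within a strain. The mean chi-square per gene between their counts was 4.89, against 17.5 for the next pair, D2 mice 3 and 5. Their counts differed by more than sampling noise, and both were kept. This check cannot tell whether they shared material before the libraries were made. In bulk tissue, fewer cells of a type and less RNA per cell cannot be told apart.

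Crh (ENSMUSG00000049796, chr3:19747565-19749655 in GRCm39) had 680.3, 939, 389.7, 590.2 and 369 normalized counts in B6 mice 1 to 5. In D2 mice 1 to 5 it had 578, 466, 632, 463 and 463. The D2 mice lay close together, inside the range of the B6 mice, of which mouse 2 was the highest and mice 3 and 5 the lowest. Averaged, B6 had 594 ± 234 (SD, n = 5) and D2 had 520.5 ± 79.5 (SD, n = 5). The log2 fold change, D2 against B6 here and throughout, was -0.19 (SE 0.22, edgeR adjusted p = 0.648).

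Ucn (ENSMUSG00000038676, chr5:31295334-31296231), the second ligand, was close to absent in 3 B6 mice. Raw counts were 1, 0, 46, 4 and 43 in B6 mice 1 to 5 and 6, 16, 65, 18 and 13 in D2 mice 1 to 5, and the count of 0 allows up to 3 counts, for counting error alone. On the normalized scale the levels were 0.965, 0, 52.7, 4.28 and 44.2 in B6 and 5.5, 15.6, 61.4, 16.9 and 13.3 in D2. Thus B6 mice 3 and 5 and D2 mouse 3 were high and the other 7 mice low, across the strains. The log2 fold change was 0.17 (SE 0.90, edgeR adjusted p = 0.937), with a 95% interval from -1.79 to 2.12, so that a several-fold difference in either direction could not be told from the spread between mice. All 635 bases of the Ucn exons annotated in GENCODE vM39 lie within exons of Trim54 on the opposite strand. The methods name a stranded library kit, but the sources used here do not say whether the counting took account of strand. Trim54, a muscle-type ubiquitin ligase, had 3.86, 3.1, 121, 7.48 and 141 normalized counts in the B6 mice and 8.26, 66.4, 154, 43.2 and 18.4 in the D2 mice, high in the same B6 mice as Ucn. If strand was not used, reads of these genes cannot be told apart, and the Ucn values are uncertain for that reason.

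Crhr1 (ENSMUSG00000018634, chr11:104023164-104066351), the receptor with the higher affinity for CRF, was the steadiest gene of the CRF system. Its normalized counts were 1292, 1389.9, 1414, 1182 and 1410.3 in B6 mice 1 to 5 and 1422, 1120.3, 1405, 1118 and 1250.2 in D2 mice 1 to 5. The log2 fold change was -0.08 (SE 0.08, edgeR adjusted p = 0.574), with an interval from -0.26 to 0.10.

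Crhr2 (ENSMUSG00000003476, chr6:55067032-55110027), the other CRF receptor of the set, was lower in level than Crhr1 in every mouse. It had 307, 293, 228, 368 and 211 normalized counts in B6 mice 1 to 5 and 285, 325, 336, 398 and 278 in D2 mice 1 to 5. B6 mice 3 and 5 were below all D2 mice and the other 3 B6 mice fell among them. The log2 fold change was 0.21 (SE 0.15, edgeR adjusted p = 0.422). The counts of Crhr1 divided by those of Crhr2, a ratio that does not depend on scaling, were between 3.21 and 6.67 in B6 and between 2.81 and 4.98 in D2. Its log2 differed by -0.31 between the strains (exact permutation test, two-sided, p = 0.246, adjusted over 3 ratios p = 0.492).

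Crhbp (ENSMUSG00000021680, chr13:95567879-95581841), the binding protein, fell into separate levels within B6. B6 mice 1, 2 and 4 had 576, 567 and 632 normalized counts, while B6 mice 3 and 5 had 1614 and 1472. D2 mice 1 to 5 had 775, 1493, 1136, 1149 and 969.8, of which mouse 2 lay within the higher level and the others between both levels. B6 averaged 972 ± 524 (SD, n = 5) and D2 averaged 1105 ± 265 (SD, n = 5), with a log2 fold change of 0.19 (SE 0.31, edgeR adjusted p = 0.76), which rested on single mice, at 0.043 without B6 mouse 2 and 0.44 without B6 mouse 3. Crhbp had the widest spread of the set after Ucn, a coefficient of variation of 40.0% within strains, at percentile 98.5 of the 15388 genes with a mean of at least 100 normalized counts. Crh followed at 31.4% (percentile 97.4), against a median of 6.48% over those genes. The ratio of Crh to Crhbp counts ran from 0.242 to 1.66 in B6 and from 0.312 to 0.746 in D2, a log2 difference of -0.43 (exact permutation test, two-sided, p = 0.492) that ran from -0.78 without B6 mouse 3 to -0.089 without B6 mouse 2.

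Nr3c1 (ENSMUSG00000024431, chr18:39543598-39652474), the glucocorticoid receptor, had 9909.5, 8946, 11253, 9613 and 11165 normalized counts in B6 mice 1 to 5 and 10131, 10509, 10893, 11052 and 10392 in D2 mice 1 to 5. Again B6 mice 3 and 5 were the highest of all and B6 mice 1, 2 and 4 the lowest, with the D2 mice between. Its log2 fold change was 0.06 (SE 0.06, edgeR adjusted p = 0.59).

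Nr3c2 (ENSMUSG00000031618, chr8:77625576-77971863), the mineralocorticoid receptor, varied least of the set, with a coefficient of variation of 3.92% within strains. Its levels were 7298, 6741, 6841, 6749.6 and 7036 normalized counts in B6 mice 1 to 5 and 7035, 6555, 6806, 7293 and 7228 in D2 mice 1 to 5. The strains covered nearly the same range, and the log2 fold change was 0.01 (SE 0.04, edgeR adjusted p = 0.899). Nr3c2 shares 751 exon bases with the antisense gene Gm10649, which had between 244 and 338 normalized counts. Antisense genes without counts here also share exon bases with Nr3c1 (1165), Sgk1 (524 and 345), Fkbp5 (255, 143 and 7) and Crhr2 (194). Since it is not stated whether counting took account of strand, this limit holds for these genes too. The ratio of Nr3c1 to Nr3c2 counts had a median of 1.42 in B6 and 1.52 in D2, and its log2 differed by 0.05 (exact permutation test, two-sided, p = 0.468).

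**Figure D2:**
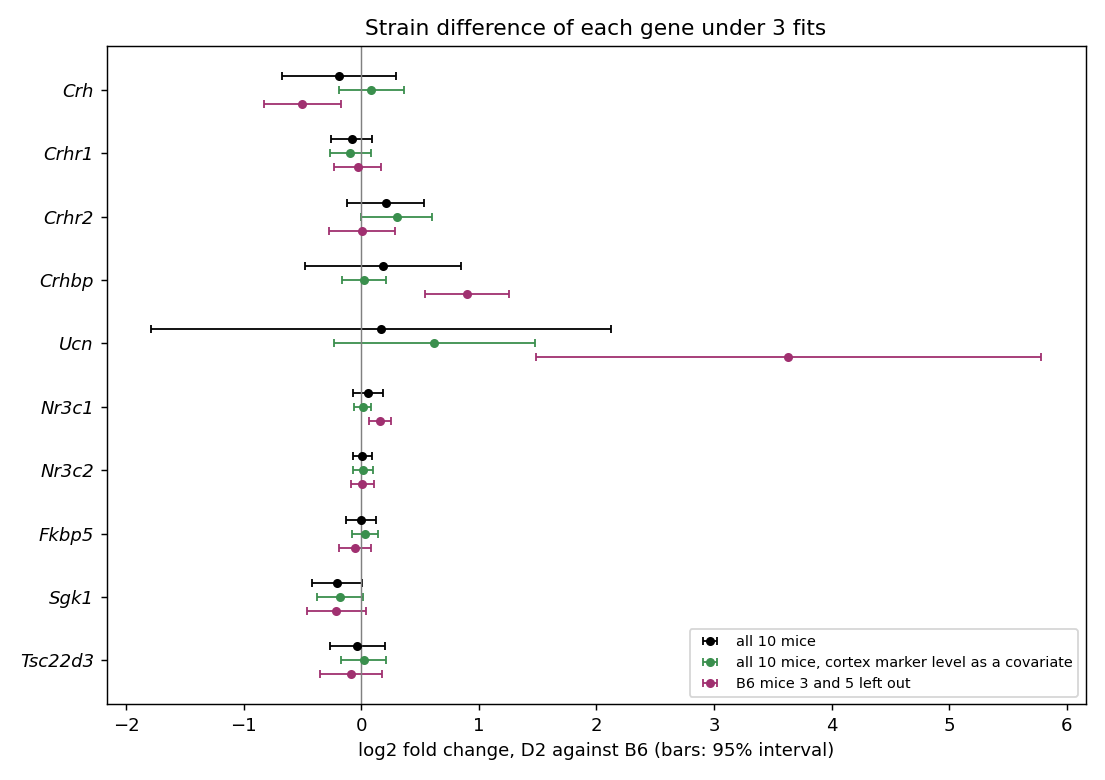
Log2 fold change of D2 against B6 (horizontal axis, points) with its 95% interval (bars) for the 10 genes in the fit of all mice (black), with the cortex marker level as a covariate (green) and with B6 mice 3 and 5 left out (purple). All black intervals cross 0, from the narrow one of Nr3c2 to that of Ucn, and the purple intervals of Crh, Crhbp, Ucn and Nr3c1 do not.

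The receptors act through short DNA motifs, which were looked for in the RefSeq promoters (build GRCm38.p6, from 250 bases before to 50 after each start). Entries were found for 8 of the 10 genes, all but Crh and Nr3c1. The glucocorticoid response element was searched as GNACA and TGTNC separated by 3 bases (N is any base, both strands), and 0.475% of 32851 promoters held it. In the set it was present at Sgk1, at position -188 from 1 of 6 listed starts, and among the 33 genes with an entry in the pathway lists described later it was present at Mt1, at position -94. The receptor's single-site form, AGAACA, was in 19.0% of promoters and in those of Ucn, Sgk1 and Tsc22d3, and at Sgk1 it overlaps the longer element on both strands. The cAMP response element TGACGTCA was in 1.79% of promoters and, in the set, in that of Ucn, at position -44. These stretches of 30 bases, shown 5′ to 3′ on the gene's strand with the matched element in capitals, were placed on GRCm39 by exact match, at chr10:21869592-21869621 (Sgk1), chr8:94905614-94905643 (Mt1) and chr5:31296265-31296294 (Ucn, minus strand).
Sgk1: atgcggaaaGAACAGAATGTTCtcggagat
Mt1: gcactatagGGACATGATGTTCcacacgtc
Ucn: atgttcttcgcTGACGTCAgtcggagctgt
The Sgk1 stretch lies inside the Sgk1 gene, since longer transcripts start upstream of it, but in no annotated exon, the Ucn stretch lies in an exon of Trim54, and the Mt1 stretch lies in an exon of the antisense lncRNA Gm63980. Each is a match of letters and no measure of receptor binding.

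Sgk1 (ENSMUSG00000019970, chr10:21758083-21875802), a kinase named for its regulation by serum and glucocorticoid, came closest of the set to a strain difference. It had 6403, 9108, 7449, 7605 and 7743 normalized counts in B6 mice 1 to 5 and 7913, 6430.0, 6517, 5494 and 6939 in D2 mice 1 to 5. B6 mouse 1 was lower than any D2 mouse except mouse 4, and D2 mouse 1 was higher than any B6 mouse except mouse 2, so the groups overlapped. B6 averaged 7662 ± 966 (SD, n = 5) and D2 averaged 6659 ± 877 (SD, n = 5). The log2 fold change was -0.20 (SE 0.10) with an interval from -0.41 to 0.01, and edgeR gave an unadjusted p of 0.0603 and an adjusted p of 0.193. When each mouse in turn was dropped, it stayed between -0.27 and -0.13, and the lowest adjusted p was 0.0686.

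Fkbp5 (ENSMUSG00000024222, chr17:28618058-28737521), a co-chaperone that lowers the affinity of the glucocorticoid receptor and is itself induced by glucocorticoid, had the fold change closest to none of the set. Its normalized counts were 4594, 4632, 4391, 5267 and 4401 in B6 mice 1 to 5 and 4990.0, 4445, 4462, 4382 and 5026 in D2 mice 1 to 5. B6 mouse 4 was above the other 4 B6 mice, which lay within the range of D2. Its log2 fold change was 0.0013 (SE 0.06, edgeR adjusted p = 0.991), with an interval from -0.13 to 0.13.

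Tsc22d3 (ENSMUSG00000031431, chrX:139440091-139501408) encodes the glucocorticoid-induced leucine zipper, an anti-inflammatory regulator. It had 4436, 4818, 4086, 4669 and 4316 normalized counts in B6 mice 1 to 5 and 5742, 4094, 3618, 3775 and 4605 in D2 mice 1 to 5. D2 mouse 1 was the highest and D2 mice 3 and 4 the lowest of all 10, with the B6 mice between. The strains differed by a log2 fold change of -0.03 (SE 0.11, edgeR adjusted p = 0.888). D2 mouse 1 was also the highest D2 mouse for Sgk1.

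The genes whose levels followed each of these targets most closely over the 10 mice were listed, after the mean of each strain was taken away. For Sgk1 they were Pigs, Pdcd2l and Aldoc (Pearson r = 0.988, 0.982 and 0.978), for Tsc22d3 Akt1, Slc25a25 and Alkbh5 (r = 0.951, 0.947 and 0.940) and for Fkbp5 an unnamed gene (ENSMUSG00000121307), Nfyc and Adrm1 (r = 0.956, 0.950 and 0.947). They are the highest of 15387 genes compared and describe these 10 libraries.

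Per kilobase of annotated exon, Nr3c1 had the highest mean, at 1319 normalized counts per kilobase, followed by Sgk1 (1191), Nr3c2 (814), Tsc22d3 (713), Crhbp (470.0), Fkbp5 (421), Crh (394), Crhr1 (336), Crhr2 (56.8) and Ucn (33.8). Of neighbors in this order, only Sgk1 and Nr3c2, and Crhr1 and Crhr2, had ranges that did not overlap in either strain. Crhr1 exceeded Crhr2 by 5.92-fold per kilobase. The order depends on the length used: with the longest transcript in place of all exons, Sgk1 came first (2305) and Nr3c1 next (1554), and Fkbp5 rose to 1048. Both steroid receptors were above the CRF receptors in every mouse.

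**Figure D3:**
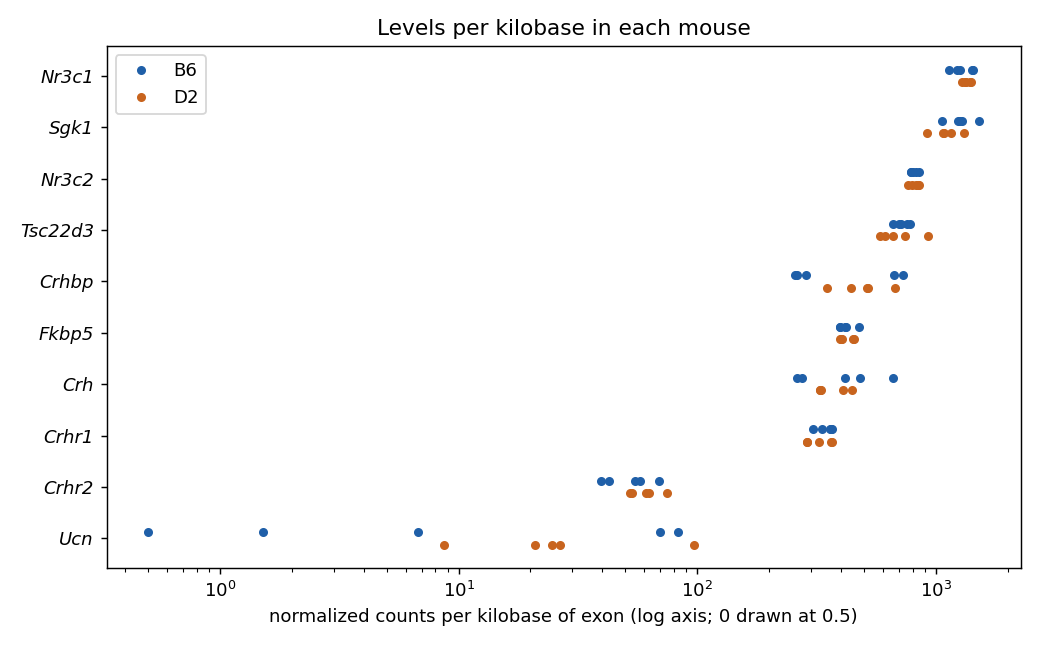
Normalized counts per kilobase of exon (horizontal log axis) of the 10 genes in each B6 (blue) and D2 (orange) mouse, ordered by mean. Levels run from a mean of 33.8 for Ucn to 1319 for Nr3c1, and only Crhr2 and Ucn lie below all other genes.

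Across mice, part of the set moved with the markers of cortex neurons. In a fit of strain together with the log2 of the cortex marker sum, an analysis chosen after seeing the data, 4 of 10 genes changed with the marker level, as did 11.9% of all genes. For each doubling of the marker sum, Ucn rose by 1.67 on the log2 scale (edgeR adjusted p = 3.42e-05), Crhbp by 0.42 (1.37e-06) and Nr3c1 by 0.07 (0.00166), while Crh fell by 0.27 (0.0021). Within D2 alone Crh showed no steady fall. There mouse 3 had both the highest marker sum (62126) and the highest Crh (632 normalized counts). The value for Ucn rests on raw counts from 0 to 65, and its reads may not be told apart from those of Trim54, as described above. Crhr1, Crhr2, Nr3c2, Fkbp5, Sgk1 and Tsc22d3 did not pass this test. In the same fit, 0 of 10 genes were called between the strains and Crhr2 had an unadjusted p under 0.05 (log2 fold change 0.30, edgeR adjusted p = 0.138), while 26.2% of all genes were called.

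**Figure D4:**
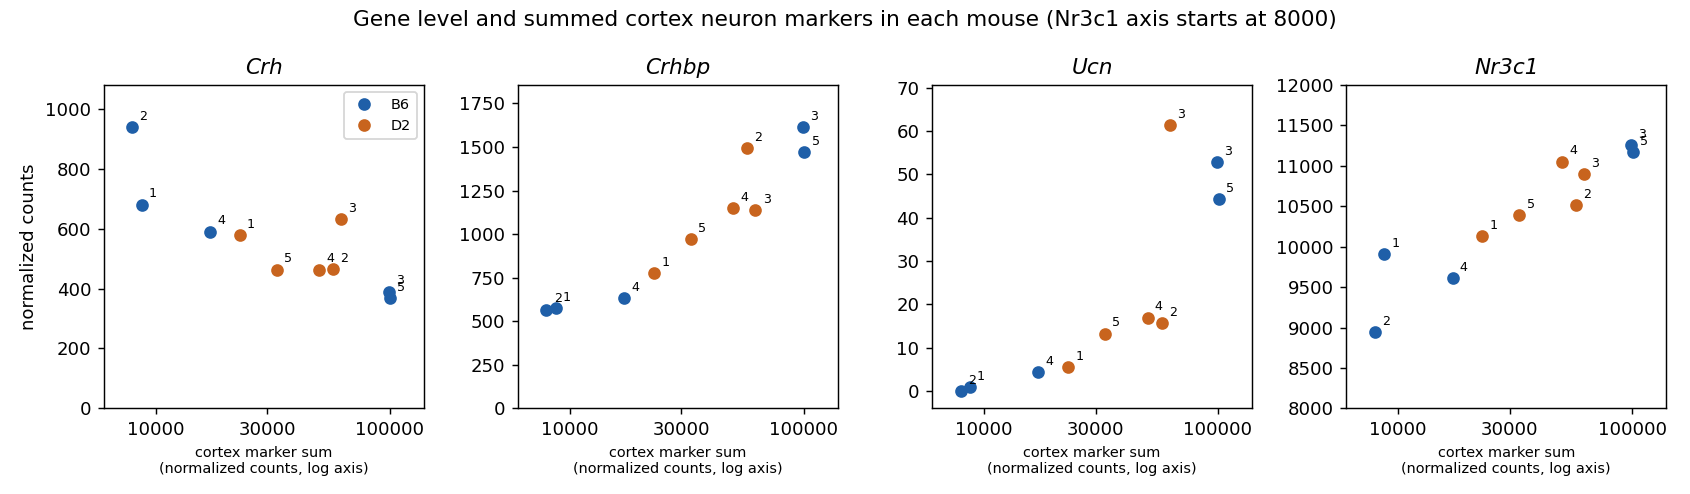
Normalized counts of Crh, Crhbp, Ucn and Nr3c1 (vertical axes) against the summed cortex neuron markers (horizontal log axis, normalized counts) in each B6 (blue) and D2 (orange) mouse, numbered by replicate. Crhbp, Ucn and Nr3c1 are highest or near highest in B6 mice 3 and 5, at marker sums of 99144 and 100544, and Crh is lowest there.

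Leaving out B6 mice 3 and 5, also chosen after seeing the data, gave calls for the same 4 genes, where 19.2% of all genes were called. Crh was then lower in D2 (log2 fold change -0.50, edgeR adjusted p = 0.0337), and Crhbp (0.90, 0.00189), Ucn (3.63, 0.0213) and Nr3c1 (0.16, 0.0212) were higher. For Ucn the B6 mice that remain had raw counts of 1, 0 and 4, and the limit set by Trim54 holds here too. The 3 B6 mice that remain had cortex marker sums from 7953 to 17083, all below the D2 mice, so strain and cortex marker level cannot be told apart among these 8 mice. Genes listed as markers of other cells moved along the same axis. Of 8 markers of septum and hypothalamus neurons, Prlr (-0.84 per doubling of the cortex marker sum, edgeR adjusted p = 0.000237), Gal and Zic1 fell as the cortex markers rose, and the sum of the 8 was lowest of all in B6 mice 3 and 5 (4770.5 and 4768). Of 7 interneuron markers, Vip (0.58 per doubling), Cck (0.73), Sst and Npy rose with the cortex markers, and Chat and Calb2 fell. The slopes of Cck and Vip were near that of the cortex marker Tbr1 (0.79), and which cells their reads came from was not tested. Of 9 markers of striatal projection neurons, 4 fell. The part that the tissue taken in each dissection had in the levels of Crh, Crhbp, Ucn and Nr3c1 was not tested.

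Lists of other genes of the same pathways were counted beside the set. The lists were chosen with earlier results of these data known, so their counts are a description. Of 18 genes known to be induced by glucocorticoid in many tissues, 7 were lower and 0 higher in D2 by edgeR, where 9.83% of all genes were lower and 8.5% higher. The median log2 fold change of the list was -0.21, against 0.0036 over all genes. Glul, the glutamine synthetase of astrocytes, ran from 114757 to 135283 normalized counts in B6 and from 72026 to 82095 in D2 (log2 fold change -0.69, SE 0.06, edgeR adjusted p = 1.66e-06). Arrdc2, an arrestin-domain protein, ran from 782 to 1146 in B6 and from 603 to 719.9 in D2 (log2 fold change -0.55, SE 0.10, edgeR adjusted p = 0.00121). Klf9, a zinc-finger transcription factor, ran from 21805 to 26243 in B6 and from 17202 to 19383 in D2 (log2 fold change -0.44, SE 0.06, edgeR adjusted p = 0.000158). Ddit4, Cebpd, Nfkbia and Mt1, named after their values were seen, were the other 4, at log2 fold changes from -0.41 to -0.20. Of the 7, all but Cebpd had ranges that did not overlap between the strains, as did 16% of all genes, called or not. Being called makes such ranges likely, so they are no separate support. The other 11 genes did not pass. Of those, Zbtb16 (log2 fold change 0.57, edgeR adjusted p = 0.0546), Pdk4 (0.20, 0.0712) and Hif3a (0.16, 0.671) had higher means in D2, and the other 8 had lower means. DESeq2 called 10 of the 18, with Zbtb16 and Pdk4 higher in D2. Both were also called higher after scaling by total counts, and Zbtb16 with the cortex marker covariate described above. Glul, Klf9, Arrdc2 and Ddit4 remained called with each mouse left out in turn, while Cebpd, Nfkbia and Mt1 were called in 4, 4 and 5 of 10 such fits. Scaling by total counts ended the calls of Cebpd, Nfkbia and Mt1, as did the first digit of the mouse number as a block. Of 6 oligodendrocyte markers, 4 were lower in D2, beside 9.83% of all genes. Their sums ran from 463595 to 669852 in B6 and from 350121 to 511323 in D2 (exact permutation test, two-sided, p = 0.0714). B6 mice 3 and 5 had the highest sums. With both left out, the 4 markers did not pass (Mog, Mag, Cnp and Mobp, edgeR adjusted p = 0.0634, 0.167, 0.121 and 0.084). Part of the markers of striatal projection neurons was also lower, as given above. Of 5 blood markers (Hba-a1, Hba-a2, Hbb-bs, Hbb-bt and Alas2), 3 were also lower. The blood sums ran from 7759 to 10750.2 in B6 and from 4562 to 8416 in D2 (exact permutation test, two-sided, p = 0.0476). Reads were aligned to the B6 genome, and the part that less well aligned D2 alleles had in the blood marker counts was not tested. Of 5 astrocyte markers 1 was higher and 2 lower, with sums from 99988 to 106195 in B6 and from 95408 to 106804 in D2. Their part in the list's result was not tested.

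Of 8 chaperones and co-chaperones of the steroid receptors, Hspa8, the constitutive heat shock cognate, was lower in D2 (log2 fold change -0.55, SE 0.06, edgeR adjusted p = 1.7e-05). The other 7 did not pass, so that 1 of 8 was called where 18.3% of all genes were. Of 7 genes that handle steroids, 3 were lower and 0 higher in D2, beside 9.83% and 8.5% of all genes, with a median log2 fold change of -0.26. Hsd11b1 regenerates active corticosterone inside cells, and ran from 345 to 514 normalized counts in B6 and from 205 to 298 in D2 (log2 fold change -0.74, SE 0.13, edgeR adjusted p = 0.00169). Srd5a1 and Akr1c14 act in succession to make neurosteroids such as allopregnanolone. Srd5a1 ran from 669.6 to 957 in B6 and from 449 to 512 in D2 (log2 fold change -0.69, SE 0.10, edgeR adjusted p = 0.000295). Akr1c14 ran from 161 to 218 in B6 and from 99.9 to 126 in D2 (log2 fold change -0.76, SE 0.11, edgeR adjusted p = 0.000327). These 3 genes had ranges that did not overlap, as had 16% of all genes, called or not. They were named because they were called, which makes such ranges likely, so the ranges are no separate support. All 3 stayed lower in D2 with each mouse left out in turn. Of 10 further genes of the stress axis and of the urocortin, vasopressin, oxytocin and PACAP systems, 9 were tested and 0 passed by edgeR, of which Ucn3 and Pomc had an unadjusted p under 0.05. By DESeq2, 1 of them, named after its value was seen, was called (Pomc, log2 fold change 0.43, DESeq2 adjusted p = 0.0264).

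**Figure D5:**
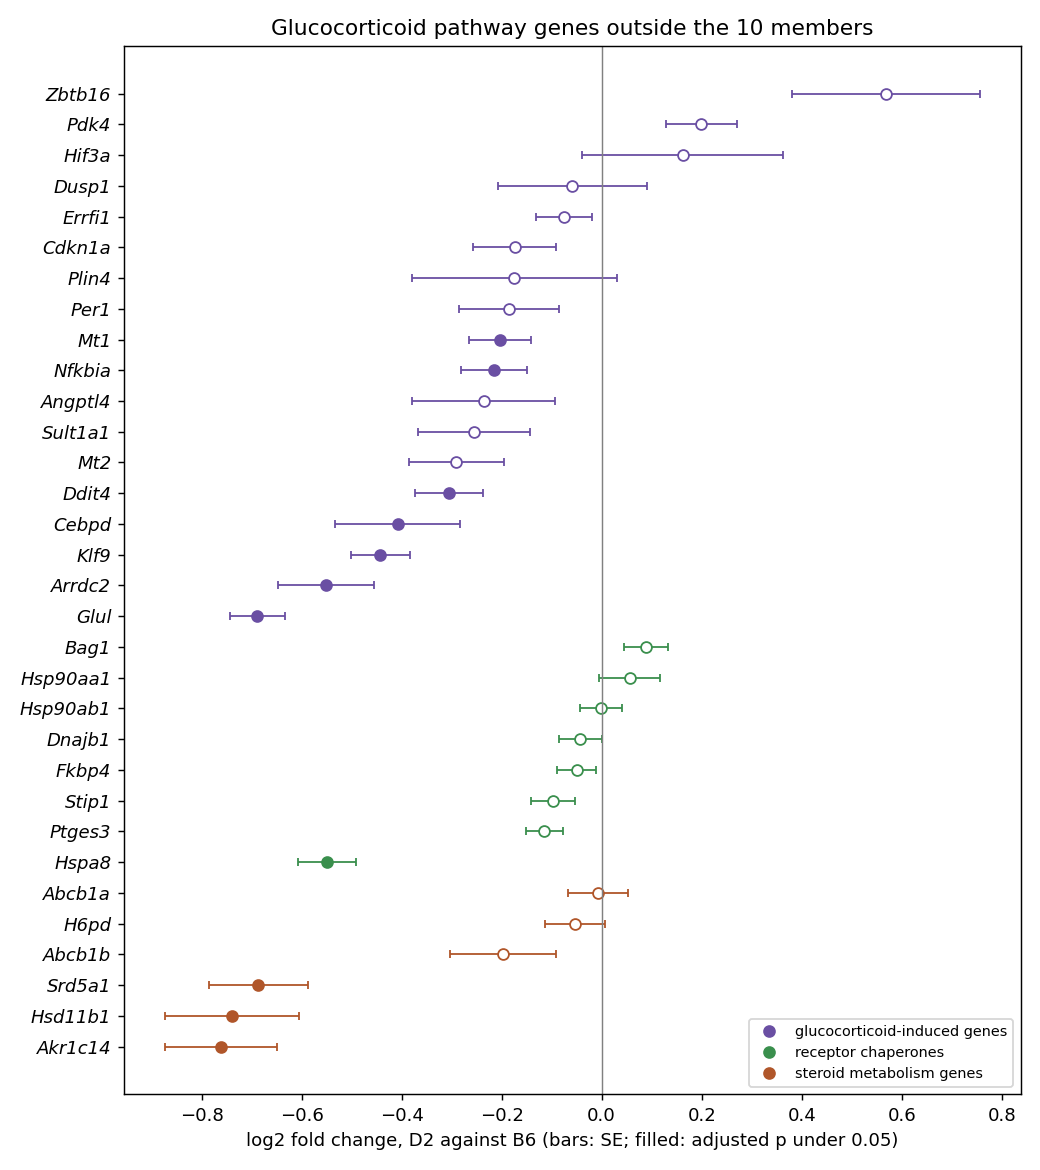
Log2 fold change of D2 against B6 (horizontal axis, points) with its SE (bars) for the genes of 3 pathway lists with a summed mean of at least 200 normalized counts, filled where the edgeR adjusted p is under 0.05. All filled points lie below 0, from Mt1 at -0.20 to Akr1c14 at -0.76.

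Around the 10 genes themselves, 307 tested genes start within 1 Mb of their starts, and 47 of those (15.3%) were called between the strains, against the 18.3% of all genes. The share ran from 1 of 25 at Sgk1 to 5 of 17 at Tsc22d3.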

How the data were processed

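RNA-seq of the NAc from 10 mice was analysed, 1 library per mouse. The authors used fastp for trimming, STAR 2.7.10b for alignment of both strains to the GRCm39 genome, which is that of B6, Samtools 1.6 for sorting and featureCounts for counting per gene. Per the labels the libraries were made by Novogene, where the methods name another core. The deposited counts are raw, with genes of median 0 removed. The authors' columns of median, mean and number of low counts per gene were not used. Gene symbols, exons and positions came from GENCODE vM39 (29519 of 29883 genes matched).

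Counts were fitted with edgeR 4.0.16 in R 4.3.3 (TMM, quasi-likelihood F test, two-sided, Benjamini-Hochberg adjustment over all genes, threshold 0.05), which was tested on simulated data. SE was taken as |log2 fold change| / sqrt(F). Exact permutation tests used all 252 assignments of 5 and 5 mice (smallest p 0.0079), and ratios a pseudocount of 0.5. Ranges, levels per kilobase and correlations used normalized counts. Alternatives were DESeq2 1.42.0, other scalings and filters, blocks by replicate number and by the first digit of the mouse number, and each mouse left out. A covariate of cortex markers, and leaving out B6 mice 3 and 5, were added after seeing the data. The 10 genes and the lists were chosen with earlier results of these data known. From each pathway list the text names the called genes with a mean of at least 100 normalized counts, at most 3 in each direction. Values were printed from the deposited counts of all 10 mice, and reads carrying D2 alleles may align less well to the B6 genome. Of the cortex neuron markers 1 is not reported here and was left out of their sum.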

Additional observations from a re-analysis of the deposited data

Results flagged for a closer look

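In 26 groups of 5 mice that were tested for a value far from the others, 2 were marked, where chance marks about 1 in 20. Ucn had 61.4 normalized counts in D2 mouse 3, and the gap to the next D2 mouse was 0.796 of the range of D2. Fkbp5 had 5267 normalized counts in B6 mouse 4, with a gap of 0.725 of the range of B6. Without D2 mouse 3 the log2 fold change of Ucn was -0.66 (edgeR adjusted p = 0.73), and without B6 mouse 4 that of Fkbp5 was 0.05.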

How the results depend on the processing

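None of the 10 genes was called under DESeq2, other scalings, filters or blocks, or with any mouse left out, and the at least 10 counts filter tested 9 of them, without Ucn. Leaving out B6 mice 3 and 5 called 4 (Crh -0.50, Crhbp 0.90, Ucn 3.63, with the limits given above, and Nr3c1 0.16). The replicate numbers did not pair the mice (same-number correlations of deviations from -0.402 to 0.367), and with the number as a replicate block 0 of the 10, 4731 of all genes and 6 of the glucocorticoid-induced list (Cebpd and Mt1 lost, Mt2 gained) were called. Counts of members passing say little about differences smaller than the intervals given, most of all for Ucn.

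The direction of Fkbp5, at 0.0013, turned with upper-quartile scaling (-0.00081), filterByExpr (-0.0048), the filter of 10 counts (-0.0025), the first digit of the mouse number as a block (-0.010) and B6 mice 3 and 5 left out (-0.053), the cause of which was not tested. With the cortex marker covariate, Crh turned to 0.084 and Tsc22d3 to 0.020. With each mouse left out, the log2 fold change ran from -0.33 to 0.036 for Crh (positive without B6 mouse 2), -0.66 to 0.86 for Ucn (negative without B6 mouse 1, 2 or 4 or D2 mouse 3), -0.0057 to 0.032 for Nr3c2, -0.027 to 0.049 for Fkbp5 and -0.15 to 0.022 for Tsc22d3. Without a change of sign it ran from 0.043 to 0.44 for Crhbp, 0.11 to 0.32 for Crhr2, -0.13 to -0.042 for Crhr1, 0.015 to 0.091 for Nr3c1 and -0.27 to -0.13 for Sgk1. The log2 ratio differences ran from -0.46 to -0.19 (Crhr1 to Crhr2), 0.018 to 0.095 (Nr3c1 to Nr3c2) and -0.78 to -0.089 (Crh to Crhbp).

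Called genes numbered 4636 to 5676 over these fits, 4 to 8 of the glucocorticoid-induced list (4 without B6 mouse 2 or D2 mouse 4), 1 to 2 chaperones (Ptges3 added) and 0 to 1 of the stress axis list (Pomc). DESeq2 called 10 (Zbtb16 and Pdk4 higher in D2), 2 and 1 of these lists, the covariate 9 (Zbtb16 higher), 2 (Ptges3 added) and 2 (Avpr1a and Pomc), and B6 mice 3 and 5 left out 9 (Pdk4 higher), 3 (Ptges3 and Hsp90aa1 added) and 1 (Adcyap1). These names were chosen after their values were seen. With the longest transcript as the length, the levels per kilobase became 436.5 for Crhr1, 104 for Crhr2, 1554 for Nr3c1, 911 for Nr3c2, 1048 for Fkbp5, 2305 for Sgk1 and 1488 for Tsc22d3, and 8 of 10 ranks changed.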
